A study of Mus musculus with 6 samples.

Results

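Acute phase and complement genes were examined in cultured mouse Sertoli cells. The members were the 9 genes Saa1, Saa2, Saa3, Lcn2, Hp, C3, Cfb, C4b and Serping1, chosen by name, and each matched 1 of the 29275 listed gene identifiers. There were 3 libraries labelled Arhgef15 cKO, from a conditional knockout of this guanine nucleotide exchange factor gene, and 3 libraries labelled WT and untreated. Both were primary Sertoli cells, the somatic cells that nurse germ cells in the seminiferous tubule, grown at 34 degrees with 10% fetal bovine serum, penicillin, streptomycin and 0.25 ug/ml EGF. The Cre driver and the deleted exons are not stated in the available sources. The replicates are labelled biological, without saying whether they are separate animals or cultures, so p-values reflect the variation among these 6 libraries, which may be technical.

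Acute phase proteins are plasma proteins whose synthesis shifts during inflammation, mainly in the liver, where interleukin 6 signals through STAT3 and interleukin 1 and TNF signal through NF-kB, with C/EBP factors at many of the promoters. Complement is a cascade of plasma proteins. C1 starts its classical route through C4 and C2, factor B drives its alternative route, and both routes cleave C3. Local synthesis of both families outside the liver, by macrophages, epithelia and stromal cells, is well known.

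For 5 of the 9 members the RefSeq table held the sequence before the start site, and these are shown because Saa1, Saa2 and Saa3 were all lowest in the same WT libraries. Each line gives 250 bases ending just before the start site, read 5′ to 3′ on the strand of the gene, from build GRCm38.p6. The Saa1 window was chr7:46742981-46743230 on the minus strand, Saa2 was chr7:46751583-46751832 on the plus strand, Saa3 was chr7:46715677-46715926 on the minus strand, Lcn2 was chr2:32387740-32387989 on the minus strand and C3 was chr17:57228137-57228386 on the minus strand. Capitals mark matches to TTGCNNAA, a form of the C/EBP recognition element, searched on both strands.
Saa1: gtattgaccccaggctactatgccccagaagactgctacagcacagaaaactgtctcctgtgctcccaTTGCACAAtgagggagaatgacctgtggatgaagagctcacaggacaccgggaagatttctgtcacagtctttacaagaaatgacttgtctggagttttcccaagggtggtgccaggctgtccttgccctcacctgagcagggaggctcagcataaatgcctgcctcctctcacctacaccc
Saa2: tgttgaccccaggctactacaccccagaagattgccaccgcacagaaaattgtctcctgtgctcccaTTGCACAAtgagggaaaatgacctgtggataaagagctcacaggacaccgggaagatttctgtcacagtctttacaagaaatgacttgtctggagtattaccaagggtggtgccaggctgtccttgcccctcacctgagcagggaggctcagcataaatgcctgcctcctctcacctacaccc
Saa3: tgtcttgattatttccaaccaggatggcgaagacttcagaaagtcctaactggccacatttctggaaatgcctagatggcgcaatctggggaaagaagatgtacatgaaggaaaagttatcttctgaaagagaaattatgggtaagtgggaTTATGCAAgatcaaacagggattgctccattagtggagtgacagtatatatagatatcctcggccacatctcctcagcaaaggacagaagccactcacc
Lcn2: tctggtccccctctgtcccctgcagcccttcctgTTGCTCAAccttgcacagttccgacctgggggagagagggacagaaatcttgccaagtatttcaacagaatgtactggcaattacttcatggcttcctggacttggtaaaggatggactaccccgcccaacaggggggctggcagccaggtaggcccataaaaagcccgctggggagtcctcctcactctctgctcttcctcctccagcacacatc
C3: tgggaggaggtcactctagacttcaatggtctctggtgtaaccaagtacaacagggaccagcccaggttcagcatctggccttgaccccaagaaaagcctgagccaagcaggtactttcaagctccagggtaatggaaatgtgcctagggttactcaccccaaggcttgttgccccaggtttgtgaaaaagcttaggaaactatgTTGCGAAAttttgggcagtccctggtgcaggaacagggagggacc
All 5 windows held 1 match each, against 9.56% of the 32851 upstream windows of this length in the table. The match ended 174 bases before the start site in Saa1, 175 in Saa2, 91 in Saa3, 208 in Lcn2 and 37 in C3, and in Saa3 it lay on the reverse strand. The Saa1 and Saa2 windows were 94.8% identical over 251 alignment columns, so their matches are copies and not separate cases, while the other pairs of windows were 49.5% to 53.5% identical. No window held the NF-kB consensus (3.90% of all windows) or the STAT element TTCNNNGAA (7.02% of all windows), so no motif overlapped another. A match is a description of these letters and not a site, and no match says only that the letters are not in this window.

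**Figure D1:**
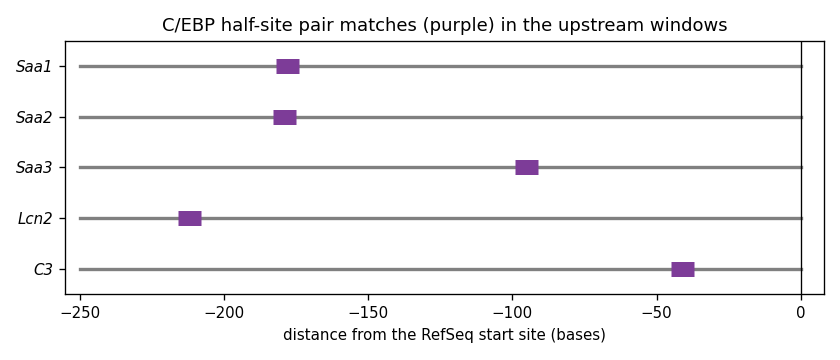
Positions of the TTGCNNAA matches (purple) in the 250 bases before the RefSeq start site of 5 members; the x axis is the distance from the start site in bases and each row is a gene. Saa1 and Saa2 carry the match at nearly the same distance, and that of C3 is the nearest to the start site.

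Levels are given in FPKM, the number of fragments scaled by exonic length and by library depth, which allows genes to be set side by side. The libraries held an estimated 16790000 to 20320000 fragments. Arhgef15 was at 0.501, 0.322 and 0.338 FPKM in the libraries labelled cKO 1, 2 and 3, against 0.123, 0.0237 and 0.349 FPKM in those labelled WT, so the targeted gene was not lower in cKO. A value over the whole gene need not report the deleted exons, so it does not check the labels. Whether any library is mislabelled was not tested, and every difference between cKO and WT below rests on the labels as given. Some Sertoli markers were present in every library, with Sox9 at 22.3 to 35.6 FPKM in cKO and 5.10 to 20.2 FPKM in WT. Others were below 1 FPKM in WT replicates 1 and 2. There Gdnf was at 0.827 and 0.879 FPKM, Dhh at 0.412 and 0.245 FPKM, and Rhox5 at 0.279 and 0.0336 FPKM. Further Sertoli markers were not low in these 2 libraries. Gata4 was at 63.1 and 48.4 FPKM, against 41.5 to 55.9 FPKM in cKO. Inhbb was at 65.7 and 85.4 FPKM, against 15.4 to 32.6 FPKM in cKO. Vim was at 1117 and 847.1 FPKM, against 457.4 to 637.5 FPKM in cKO. Of the 16 tested Sertoli markers, 12 had higher and 4 lower means in cKO. Amh and Fshr, defining genes of immature and FSH-responsive Sertoli cells, were at or below 1.42 FPKM in every library. WT replicate 3 stood apart from its group: across tested genes its values correlated at 0.860 and 0.898 with WT replicates 1 and 2, and at 0.947, 0.929 and 0.921 with the cKO libraries. Values without it are given for the tested members, for genes of the pathway lists that pass the threshold without it, and for the lists. It was singled out by its likeness to cKO in these same data. Leaving out the WT library most like cKO tends to widen group differences. P-values from the fit without it are therefore descriptive and do not test genotype.

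Over the 6 libraries the order of mean levels was C3 at 84.5 FPKM, Saa3 at 78.8, Lcn2 at 67.7, Serping1 at 54.6, Hp at 14.6, C4b at 6.27, Cfb at 0.708, Saa1 at 0.365 and Saa2 at 0.224 FPKM. The ranges of the first 4 overlapped, so their order is not fixed by these libraries. The range of Hp also overlapped those of Saa3, Lcn2, C3 and C4b, and that of C4b overlapped that of Saa3. The order within these pairs is not fixed either. Cfb, at most 1.77 FPKM, lay below the lowest C4b value of 3.96 FPKM. Among the 6 members that passed the filter, the highest library was 43.6-fold above the lowest for Saa3 and 1.78-fold for Serping1.

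**Figure D2:**
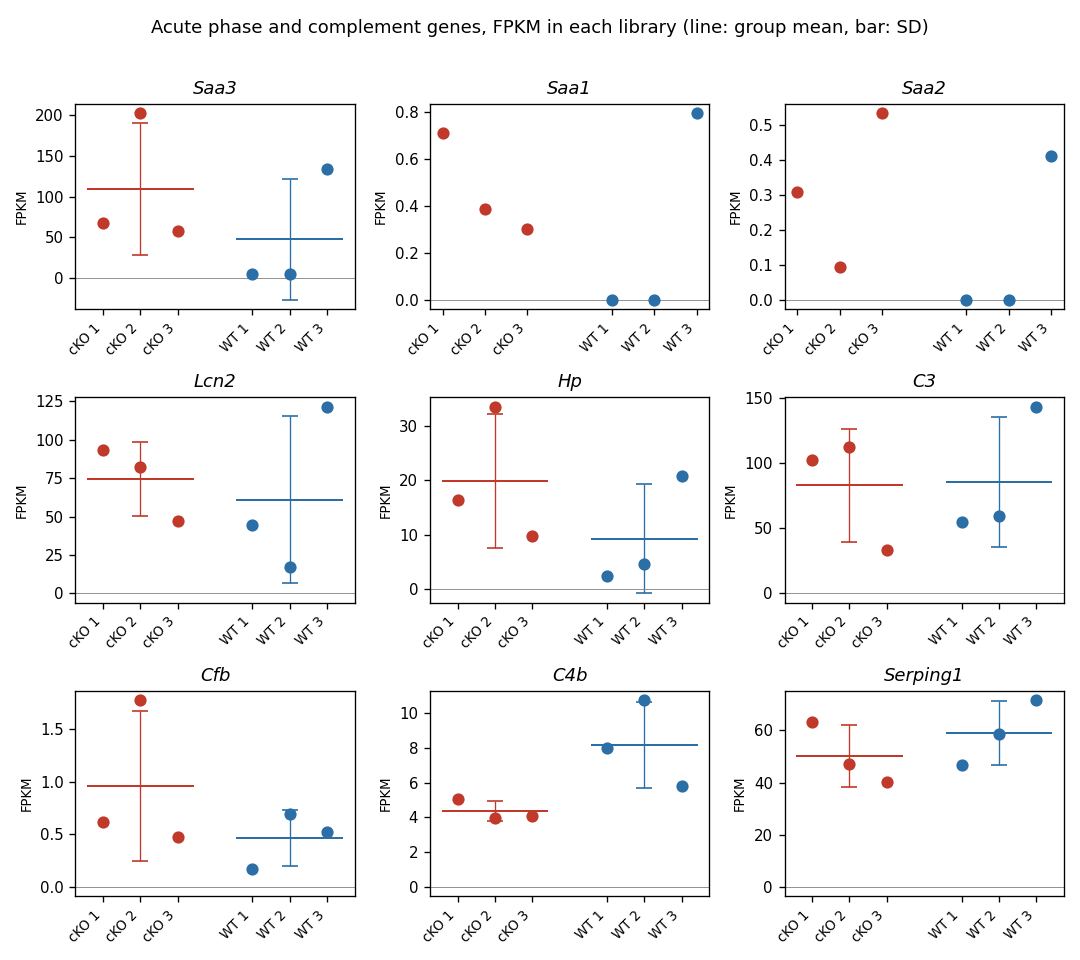
FPKM of the 9 members in each library (points), with the group mean (line) and SD (bar), each panel on its own linear axis; Saa1 and Saa2, listed at 0 in WT 1 and WT 2, are shown as points only. C4b alone has all 3 cKO points below all 3 WT points, and WT 3 is the highest library for Saa1, Lcn2, C3 and Serping1.

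No member passed the test between genotypes. Of the 9, 6 had at least 1 FPKM in at least 3 libraries and were tested, and 0 of these 6 were called (limma, Benjamini-Hochberg adjusted p under 0.05), where 0.0163% of all 12284 tested genes were called, 2 genes in all. Means on the log2(FPKM + 1) scale were higher in cKO for Saa3, Hp and Lcn2 and lower for C4b, Serping1 and C3. The median difference of the 6 was 0.27, against 0.08 over all tested genes, and without WT replicate 3 it was 0.84, against 0.11. The groups did not overlap for 1 of the 6, C4b, which was lower in cKO, where 5.01% of all tested genes had all cKO values below all WT values. At an unadjusted p under 0.05 there was 1 member, again C4b, where 6.81% of all tested genes reached it, and 2.94% did so with lower values in cKO. Saa1, Saa2 and Cfb lay below the filter and received no call.

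Saa3 encodes the serum amyloid A form that mouse macrophages, fat and epithelia make outside the liver. It was at 68.1, 202.7 and 58.2 FPKM in cKO replicates 1, 2 and 3, against 4.65, 5.21 and 133.7 FPKM in WT replicates 1, 2 and 3. All cKO libraries lay more than 10 times above WT replicates 1 and 2, while WT replicate 3 lay above cKO replicates 1 and 3, so the groups overlapped. These values rested on 227 fragments in WT replicate 1 and 8871 in cKO replicate 2. The log2(FPKM + 1) difference was 2.49 with an SE of 1.18 and a 95% interval of -0.27 to 5.25 (limma, adjusted p = 0.755). Without WT replicate 3 it was 3.99 with an SE of 0.50 (interval 2.80 to 5.18, limma, adjusted p = 0.0143). That library was singled out in these same data, so this p-value is descriptive. Saa3 was then the 1 member of 6 called, where 3.89% of all tested genes were called without that library, 304 higher (2.47%) and 174 lower (1.42%).

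Saa1 and Saa2 encode the circulating forms of serum amyloid A that the liver makes. Saa1 was at 0.708, 0.385 and 0.301 FPKM in cKO libraries, against 0, 0 and 0.794 FPKM in WT libraries. Saa2 was at 0.307, 0.0946 and 0.534 FPKM in cKO libraries, against 0, 0 and 0.410 FPKM in WT libraries. Both were thus seen in all cKO libraries and in WT replicate 3, which was the highest library for Saa1. The values stood on 15 to 34 fragments (Saa1) and 4 to 27 fragments (Saa2) in cKO libraries and on 40 and 21 fragments in WT replicate 3. A count of 0 allows up to 3 fragments, or 0.0646 and 0.0621 FPKM for Saa1 and 0.0635 and 0.0611 FPKM for Saa2 in WT replicates 1 and 2, counting error only. Exact two-sided permutation tests gave p = 0.4 for Saa1 and 0.3 for Saa2, and this test cannot go below 0.1 with 3 libraries a group. Of the 50-base windows of Saa1 transcripts, 31.1% occur in Saa2, so the split of fragments between these neighbouring genes on chromosome 7 is uncertain. Of 8 hepatocyte markers 5 were listed, and they summed to 0.341 to 0.964 FPKM in cKO and 0.866 to 1.33 FPKM in WT. Their part in these levels was not tested.

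Lcn2 encodes lipocalin 2, a carrier that withholds iron-loaded siderophores from bacteria. It was at 93.6, 82.6 and 47.1 FPKM in cKO libraries, against 44.3, 17.1 and 121.6 FPKM in WT libraries. WT replicate 3 was the highest of all 6 and WT replicate 2 the lowest, so the WT range covered the whole cKO range. The difference was 0.64 with an SE of 0.64 (95% interval -0.86 to 2.14, limma, adjusted p = 0.885). It was 1.34 without WT replicate 3 (adjusted p = 0.141) and -0.04 without WT replicate 2 (adjusted p = 0.999). Its direction thus changed only when WT replicate 2 was left out, to a value near 0.

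Hp encodes haptoglobin, which binds free haemoglobin. It was at 16.4, 33.6 and 9.82 FPKM in cKO libraries, against 2.49, 4.60 and 20.8 FPKM in WT libraries. The order of libraries was that of Saa3, with cKO replicate 2 highest, WT replicate 3 second and WT replicates 1 and 2 below all others. The difference was 1.31 with an SE of 0.70 (95% interval -0.33 to 2.95, limma, adjusted p = 0.770), and 2.08 with an SE of 0.48 without WT replicate 3 (adjusted p = 0.0631).

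C3, the central component of complement, was at 102.6, 112.9 and 33.3 FPKM in cKO libraries, against 54.8, 59.6 and 143.6 FPKM in WT libraries. cKO replicate 3 was the lowest library and WT replicate 3 the highest, and group means were 82.9 ± 43.3 FPKM in cKO and 86.0 ± 49.9 FPKM in WT (SD, n = 3 each). The difference of -0.09 with an SE of 0.54 had a 95% interval of -1.36 to 1.18 (limma, adjusted p = 0.978). Differences inside that interval, in either direction, were not excluded by these libraries. It was 0.35 without WT replicate 3 and 0.46 without cKO replicate 3.

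Cfb encodes factor B, the protease subunit of the alternative pathway C3 convertase. It was at 0.621, 1.77 and 0.476 FPKM in cKO libraries, against 0.170, 0.690 and 0.523 FPKM in WT libraries, on 9 to 84 fragments per library. The highest value was again in cKO replicate 2, and the groups overlapped (exact two-sided permutation test, p = 0.5). In the GENCODE annotation 79.5% of the exonic length of Cfb is shared with Gm20547, a gene on the same strand. No listed identifier matched the name Gm20547, so no level can be given for it. Because of this overlap the low level of Cfb is uncertain.

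C4b encodes complement C4, which the classical and lectin routes cleave to build a C3 convertase. It was at 5.03, 3.96 and 4.09 FPKM in cKO libraries, against 7.99, 10.7 and 5.79 FPKM in WT libraries. Every cKO value lay below every WT value, and WT replicate 3 was the closest to the cKO range. The means were 4.36 ± 0.581 FPKM in cKO and 8.17 ± 2.48 FPKM in WT (SD, n = 3 each), a ratio of 0.534. The difference was -0.74 with an SE of 0.26 (95% interval -1.35 to -0.14). It did not pass the test (limma, unadjusted p = 0.0219, adjusted p = 0.650), and the exact permutation test gave p = 0.1, its smallest possible value. Without WT replicate 3 it was -0.94 with an SE of 0.22 (adjusted p = 0.0692). In mouse, 34.6% of the 50-base windows of C4b transcripts occur in the paralog C4a, which was at 0.0602 to 0.163 FPKM over the 6 libraries, so some fragments may have been split or lost.

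Serping1 encodes the C1 inhibitor, which inactivates the C1r and C1s proteases. It was at 63.3, 47.2 and 40.3 FPKM in cKO libraries, against 46.8, 58.5 and 71.6 FPKM in WT libraries. The groups overlapped and no library was more than 1.78-fold from another. The difference was -0.23 with an SE of 0.25 (95% interval -0.82 to 0.36, limma, adjusted p = 0.896). It shrank to -0.08 without WT replicate 3.

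**Figure D3:**
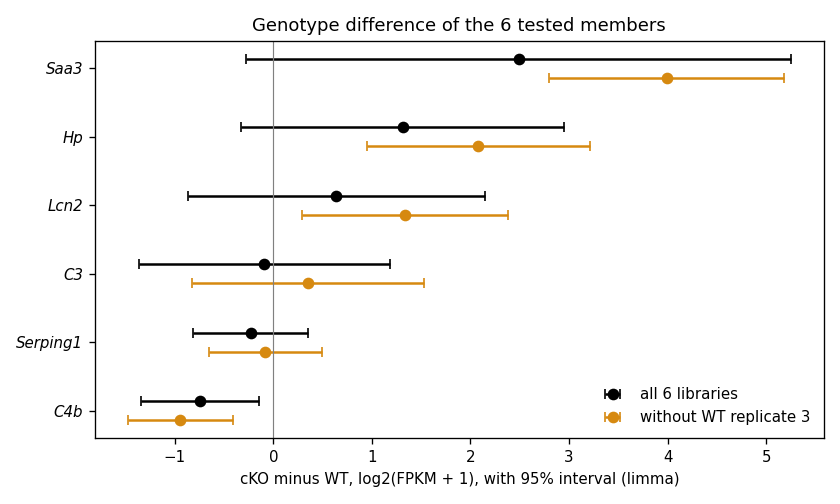
Genotype difference on the log2(FPKM + 1) scale (cKO minus WT, x axis) with 95% limma intervals for the 6 tested members, with all 6 libraries (black) and without WT replicate 3 (orange). With all libraries the intervals of Saa3, Hp, Lcn2, C3 and Serping1 include 0 and that of C4b, -1.35 to -0.14, does not; the intervals are not adjusted for the number of genes tested.

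The tested members differed in how they followed the libraries. After each gene was centred on its own mean over the 6 libraries, the root mean square difference between 2 profiles was taken as their unlikeness, as a description only. The smallest values among the members were 0.45 for C4b with Serping1 and 0.54 for C3 with Serping1, genes of small spread, and the largest was 2.43 for Saa3 with C4b. Hp lay 0.97 from Saa3 and 0.76 from Lcn2. Among all other named genes, the closest to Saa3 were Serpinb2 (0.33), the peptidoglycan recognition gene Pglyrp3 (0.38) and Il6 (0.49), where the profile of Saa3 itself had a root mean square of 2.03. The closest to Hp were Nfkbiz (0.15), an atypical IkB protein, H2-Q5 (0.16), and Sod2 (0.27), the mitochondrial superoxide dismutase. For Lcn2 they were Trib3 (0.11), Gja4 (0.15) and Nupr1 (0.25), and for C3 Rapsn (0.25), Prelid2 (0.26) and Map2k6 (0.27). For C4b they were Ap2a2, Tlcd2 and Grb10, each at 0.09, and for Serping1 Dop1b (0.05), Nudt16 (0.06) and Abca7 (0.07).

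Genes around the members were grouped in 8 lists, and limma called 0 of their tested genes. Over all 12284 tested genes, 7343 had higher and 4941 lower means in cKO, which is the background for the counts of directions below. At an unadjusted p under 0.05 there were 4 of 7 complement receptors and 3 of 14 genes of the interleukin 6 and STAT3 arm, where 6.81% of all tested genes reached it. There was 1 of 11 other acute phase genes, 1 of 7 classical and lectin components, 1 of 5 regulators and 1 of 7 binding partners. There were 0 of 3 alternative and terminal components and 0 of 17 genes of the interleukin 1, TNF and NF-kB arm. The list medians without WT replicate 3 were 0.18 for other acute phase genes, -0.75 for classical and lectin components, 0.40 for alternative and terminal components and -0.39 for regulators. They were -0.95 for receptors, 0.07 for binding partners, 0.42 for the interleukin 6 arm and 0.87 for the interleukin 1 arm, against 0.11 over all tested genes.

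Of 25 other acute phase genes, 23 were listed and 11 were tested. None of the 11 passed in either direction, 6 had higher and 5 lower means in cKO, and the median difference was 0.05, against 0.08 over all tested genes. Serpina3n, a protease inhibitor of the antichymotrypsin family, was at 75.0, 39.2 and 61.9 FPKM in cKO, against 135.8, 84.5 and 85.7 FPKM in WT. All its cKO values lay below all its WT values, but the difference of -0.80 did not pass (limma, adjusted p = 0.680). Hamp, the gene of the iron hormone hepcidin, was at 5.54, 14.4 and 1.21 FPKM in cKO, against 0, 0 and 9.72 FPKM in WT, the same split of WT libraries as in Saa1 and Saa2 (adjusted p = 0.831). Lrg1 was at 10.8, 4.91 and 2.01 FPKM in cKO and 23.4, 6.45 and 5.63 FPKM in WT (adjusted p = 0.842), and Serpina3m at 1.22 to 3.12 FPKM in cKO and 2.43 to 4.59 FPKM in WT (adjusted p = 0.779). Cp, the copper oxidase ceruloplasmin, was named after its values were seen. It was at 18.0, 16.2 and 24.6 FPKM in cKO, against 4.01, 4.65 and 38.8 FPKM in WT, with a difference of 0.97 (adjusted p = 0.847) that became 1.93 without WT replicate 3 (limma, adjusted p = 0.0128). It was the 1 gene of the 11 called without that library, where 2.47% of all tested genes were called higher. Ptx3, the long pentraxin, also named after its values were seen, did not share this split: it was at 111.8, 520.0 and 112.0 FPKM in cKO and 134.9, 277.2 and 184.5 FPKM in WT.

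The classical and lectin components other than C4b were tested for 7 of 16 listed genes, none of which passed, with 2 higher and 5 lower means in cKO and a median of -0.66. C2, the partner of C4 in the classical convertase and the neighbour of Cfb on chromosome 17, was at 6.34, 6.35 and 5.50 FPKM in cKO, against 10.1, 11.7 and 8.88 FPKM in WT. Its groups did not overlap, as in C4b, and its difference was -0.66 with an SE of 0.20 (limma, adjusted p = 0.608). The C1q chain genes C1qb and C1qc, made mainly by macrophages, had differences of -1.80 and -1.66 (adjusted p = 0.736 and 0.778), and of -2.64 and -2.62 without WT replicate 3 (limma, adjusted p = 0.0575 and 0.0849). C1qb was at 22.1, 5.97 and 29.3 FPKM in cKO, against 117.7, 93.7 and 17.2 FPKM in WT, so WT replicate 3 lay inside the cKO range. C1s1, the gene of the protease subunit that cleaves C4 and C2, had the opposite sign, at 60.3, 89.2 and 95.8 FPKM in cKO and 21.8, 36.0 and 97.3 FPKM in WT (difference 0.90, adjusted p = 0.781, and 1.48 without WT replicate 3, adjusted p = 0.0446).

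The alternative and terminal components were tested for 3 of 9 listed genes, with none passing and a median of -0.06. Cfp, the gene of properdin, which stabilises the alternative convertase, was at 9.75, 5.52 and 8.31 FPKM in cKO, against 36.5, 19.0 and 5.16 FPKM in WT (difference -0.94, limma, adjusted p = 0.815, and -1.66 without WT replicate 3, adjusted p = 0.0473). C7, a terminal pore component, was at 4.22, 7.92 and 2.16 FPKM in cKO and 3.87, 2.30 and 9.32 FPKM in WT (adjusted p = 0.985), and C8g at 0.918 to 1.24 FPKM in cKO and 0.393 to 1.09 FPKM in WT (adjusted p = 0.837). Cfd, C9 and Hc, which encode factor D, C9 and C5, reached at most 0.168 FPKM in any library.

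Of 15 listed complement regulators, 5 were tested and 0 passed, and their median difference was -0.40. Clu, the gene of clusterin, which is both an inhibitor of the terminal complex and a main Sertoli cell product, was at 450.3, 335.3 and 451.9 FPKM in cKO, against 106.7, 79.2 and 475.8 FPKM in WT. WT replicate 3 was its highest library (difference 1.35, limma, adjusted p = 0.744, and 2.14 without that library, adjusted p = 0.0107). Cd59a, a membrane inhibitor of the terminal pore, was at 6.41, 5.82 and 9.78 FPKM in cKO, below the 18.3, 18.6 and 10.6 FPKM of all WT libraries. The difference did not pass (limma, adjusted p = 0.596), and was -1.25 without WT replicate 3 (limma, adjusted p = 0.0447). Cr1l, a mouse inhibitor of C3 convertases, also had all cKO values (4.79 to 6.53 FPKM) below all WT values (7.50 to 8.43 FPKM, adjusted p = 0.770).

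Complement receptors were tested for 7 of 9 listed genes, with 5 lower means in cKO, a median of -0.76 and none passing. C3ar1, the receptor of the C3a fragment, was at 9.07, 2.60 and 8.77 FPKM in cKO, against 24.5, 27.8 and 11.6 FPKM in WT, without overlap (difference -1.57, limma, adjusted p = 0.608). Vsig4, a macrophage receptor of C3b, was at 1.15, 0.281 and 2.95 FPKM in cKO and 13.2, 9.98 and 1.36 FPKM in WT (adjusted p = 0.727). Itgb2 and Itgam, the chains of complement receptor 3, differed by -0.76 and -0.68 (adjusted p = 0.682 and 0.727). Without WT replicate 3, 2 of the 7 were called lower, Vsig4 (limma, adjusted p = 0.0351) and C5ar1 (0.0151), where 1.42% of all tested genes were.

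Receptors and partners of serum amyloid A, lipocalin 2 and haptoglobin were tested for 7 of 13 listed genes. None passed, and the median was 0.18. Cd36, a scavenger receptor that binds serum amyloid A, was at 21.2, 14.3 and 28.3 FPKM in cKO, below the 38.3, 68.4 and 36.1 FPKM of WT (difference -1.11, limma, adjusted p = 0.607). Lrp2, the megalin receptor that takes up lipocalin 2, was at 1.28, 0.827 and 2.41 FPKM in cKO and 0.131, 0.203 and 1.84 FPKM in WT (adjusted p = 0.819). Slc22a17, a lipocalin 2 receptor, was at 1.62 to 2.59 FPKM in cKO and 1.41 to 2.15 FPKM in WT (adjusted p = 0.899), and Tlr4 at 1.33 to 2.85 and 1.69 to 3.90 FPKM (adjusted p = 0.839).

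Of the interleukin 6 family and STAT3 arm, 14 of 16 genes were tested and 0 passed. Means were higher in cKO for 9 of the 14, where 7343 of all 12284 tested genes had higher means, and the median was 0.29. Cebpb, a C/EBP factor of acute phase promoters, was at 410.6, 338.8 and 262.2 FPKM in cKO, against 221.8, 114.0 and 98.5 FPKM in WT. Socs3, the feedback inhibitor of STAT3 signalling, was at 51.5, 46.3 and 52.2 FPKM in cKO and 28.7, 41.0 and 33.3 FPKM in WT. These were the 2 genes of the list whose cKO values all lay above their WT values, where 6.28% of all tested genes did (differences 1.28 and 0.54, limma, adjusted p = 0.545 and 0.663). Il6 had low and high libraries in common with Saa3, at 19.7, 47.1 and 8.30 FPKM in cKO, against 0.813, 2.01 and 42.6 FPKM in WT (adjusted p = 0.819, and 0.0447 without WT replicate 3). The related cytokine Lif was at 87.5, 125.4 and 32.8 FPKM in cKO and 8.85, 9.57 and 68.9 FPKM in WT (adjusted p = 0.730, and 0.0349 without WT replicate 3).

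The interleukin 1, TNF and NF-kB arm had 17 of 18 genes tested, with a median of 0.69 and 0 passing. Means were higher in cKO for 16 of the 17, where 7343 of all 12284 tested genes had higher means. Il1b was at 9.52, 170.1 and 2.40 FPKM in cKO, against 0.280, 0.484 and 8.15 FPKM in WT (difference 2.82, limma, adjusted p = 0.755). Tnf, named after its values were seen, was at 3.78, 292.5 and 2.82 FPKM in cKO and 0.618, 1.03 and 3.42 FPKM in WT, so cKO replicate 2 alone was high. Nfkbiz was at 16.0, 32.0 and 12.7 FPKM in cKO and 2.98, 5.69 and 21.5 FPKM in WT (adjusted p = 0.761), Relb at 12.3 to 30.9 FPKM in cKO and 9.11 to 15.4 FPKM in WT (adjusted p = 0.755), and Il17ra at 7.08 to 9.29 and 3.94 to 7.25 FPKM (adjusted p = 0.740). With cKO replicate 2 left out, the differences of Saa3 and Hp were 1.93 and 0.87, against 2.49 and 1.31 with all libraries.

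**Figure D4:**
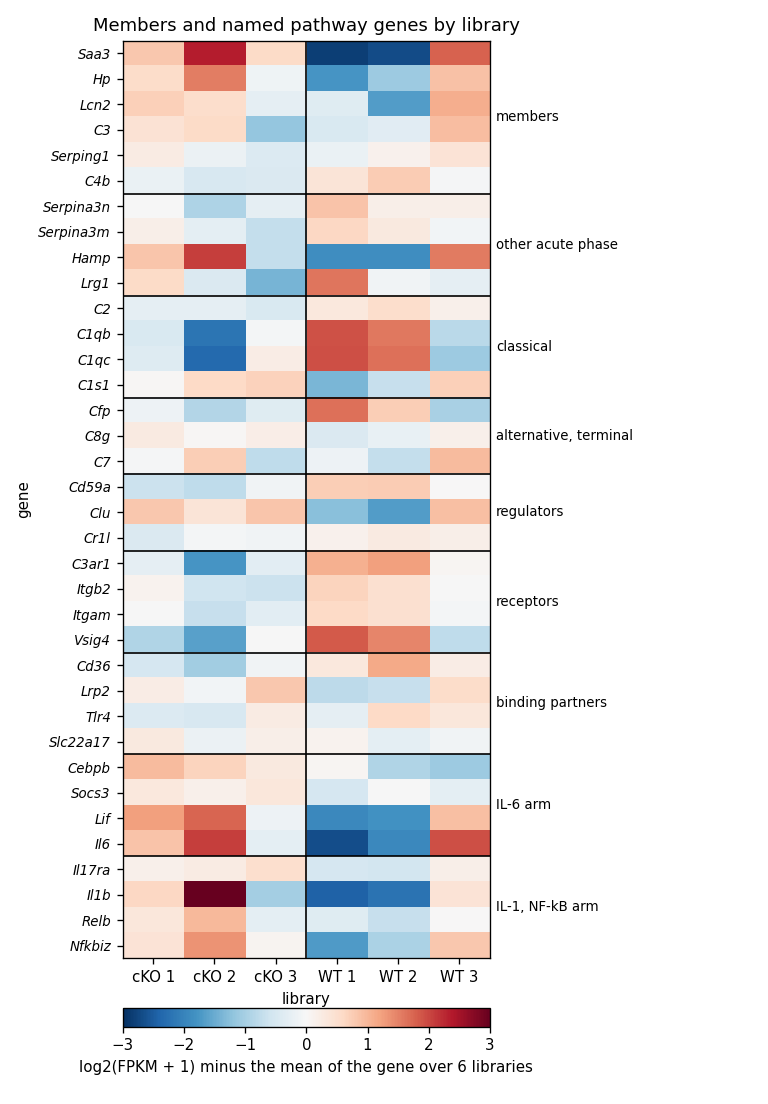
Log2(FPKM + 1) minus the mean of the gene over the 6 libraries (colour; values beyond 3 take the end colour) for the 6 tested members and the named genes of each list, by library (x axis). Saa3, Hp, Hamp, Il6, Lif and Nfkbiz are low in WT 1 and WT 2 and high in cKO 2 and WT 3, while C1qb, C1qc and Vsig4 show the reverse.

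Markers of other cells moved with these libraries. In these bulk samples fewer cells of a type and less RNA per cell cannot be told apart. Of 16 macrophage and monocyte markers 14 were tested, 13 with lower means in cKO, where 4941 of all 12284 tested genes had lower means. The summed level of the 16 markers was 203.9 to 340.2 FPKM in cKO, against 313.0 to 1414 FPKM in WT. WT replicate 3 was the lowest WT library. C1qa, C1qb, C1qc and Cd14 belong both to this list and to the complement or acute phase lists. Macrophage markers were highest in WT replicates 1 and 2, where Saa3, Hp and Saa1 were lowest and C3ar1, Vsig4 and Cfp were highest. Their part in these results was not tested. Of 13 neutrophil markers 9 were listed, and their summed level was 5.67 to 19.2 FPKM in cKO and 15.0 to 20.1 FPKM in WT. The granule genes Elane, Ngp, Ltf and Mpo were each at or below 0.261 FPKM in every library. Camp was at 0.722 to 3.54 FPKM in cKO and 0.281 to 2.40 FPKM in WT, and Mmp9 at 1.05 to 8.31 FPKM in cKO and 0.565 to 3.60 FPKM in WT. Mmp8 was at 2.31 to 6.83 FPKM in cKO and 8.32 to 17.7 FPKM in WT. S100a8 reached 2.92 FPKM and Csf3r 1.98 FPKM, both in cKO replicate 2. The part of these markers in the levels of Lcn2 was not tested. Without WT replicate 3, 4 of 14 tested macrophage markers were called lower and 0 higher, and 1 of 3 tested neutrophil markers was called lower. Of all tested genes, 2.47% were called higher and 1.42% lower in that fit. Sertoli markers had 12 of 16 tested genes with higher means in cKO, where 7343 of all 12284 tested genes had higher means. The mean log2(FPKM + 1) of the listed Sertoli markers was 4.33, 4.05 and 4.37 in cKO, against 3.43, 3.36 and 4.33 in WT. Their summed level did not set WT replicates 1 and 2 apart. It was 1416, 1144 and 1572 FPKM in cKO, against 1496, 1214 and 1494 FPKM in WT. In the fit without WT replicate 3, 7 of the 16 tested Sertoli markers were called higher and 1 lower, where 2.47% and 1.42% of all tested genes were. WT replicate 3 was within the cKO range for 11 of 14 macrophage markers and 2 of the 6 tested members, against 41.5% of all tested genes. It was within that range for 4 of 16 Sertoli, 7 of 8 endothelial and 5 of 6 myoid markers. For fibroblast, germ cell and Leydig markers this was 4 of 9, 3 of 6 and 2 of 4. Among markers of 6 other cell types 0 genes passed. Median differences were -0.33 for fibroblast, -0.54 for myoid, 0.93 for endothelial, -0.67 for Leydig and -0.10 for germ cell markers. For epididymal markers the median was 0.06, over only 2 tested genes of opposite sign, Krt8 (-0.45) and Krt19 (0.57). Without WT replicate 3 these medians were -0.61 for fibroblast, -1.08 for myoid, 1.49 for endothelial, -0.79 for Leydig, 0.47 for germ cell and 0.95 for epididymal markers, so the sign of the germ cell median turned. In that fit 2 of 9 fibroblast and 2 of 6 myoid markers were called lower. Of 8 endothelial markers 3 were called higher, and of 4 Leydig markers 1 was called in each direction. The part of these markers in the members' differences was not tested.

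**Figure D5:**
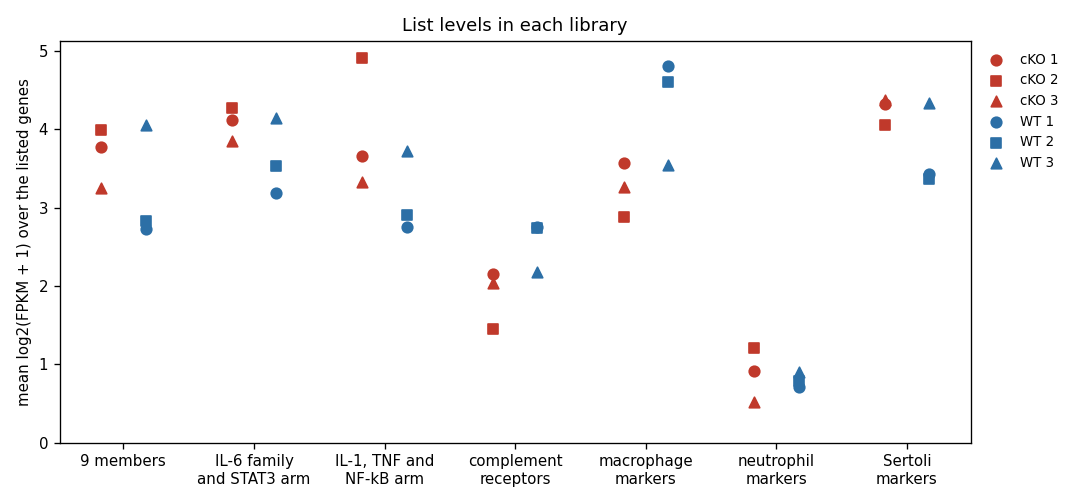
Mean log2(FPKM + 1) over the listed genes of 7 lists (x axis) in each cKO (red) and WT (blue) library, with replicates 1, 2 and 3 as circle, square and triangle. For the 9 members, the IL-6 arm and the IL-1, TNF and NF-kB arm, WT 3 lies within or above the cKO points and WT 1 and WT 2 lie below them; for macrophage markers WT 1 and WT 2 are the highest libraries.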

How the data were processed

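RNA sequencing of 6 libraries was analysed from 1 deposited table of FPKM values per library. The submitters' processing notes name HISAT2 2.1.0, FastQC and build mm8, and nothing in hand states how fragments were counted, with which annotation or strand. No source names the unit, which was inferred from the deposited values: multiplied by exonic length (merged exons of GENCODE M21) they were whole multiples of a library's own step for 99.1% to 99.5% of low values in single-exon genes (within 0.02 times the fragment number), and the steps gave the depths. Of 29275 identifiers, 28932 matched a symbol. Because FPKM is a normalized unit, count tests were not applied. Values were transformed to log2(FPKM + 1), which understates changes of low genes. The 12284 genes that reached 1 FPKM in 3 or more libraries were fitted in limma 3.58.1 (R 4.3.3, trend, genotype only, two-sided, Benjamini-Hochberg). The fit was tested on simulated data. Members below the filter were fitted over all identifiers, with an exact permutation test. Intervals and floors on fragments cover counting error only. Since strand is not stated, antisense fragments cannot be separated.

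Members and gene lists were chosen with earlier results of these data known. From each pathway list up to 4 tested genes with the smallest p were named, and for each tested member the 3 genes with the most similar profile (1 gene under this rule is not reported here); Cp, Ptx3, Tnf, C4a, C5ar1, Cfd, C9, Hc and single marker genes were named after their values were seen. Sequences are from RefSeq (GRCm38.p6); other coordinates are not given, since the build of the files is in doubt. Alternatives were pseudocounts of 0.1 and 5, no filter and a filter of 5 FPKM, median-ratio and quantile scaling, array weights, each library left out and a replicate block. Tables and figures were made in Python 3.11.15.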

Additional observations from a re-analysis of the deposited data

How the results depend on the processing

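The number of genes called, 2 with all libraries, was 0 with no filter on low values and 0 with the replicate number as a block, and 0 to 478 with each library left out in turn, the highest without WT replicate 3. The number of members called was 0 in every setting except without WT replicate 3, where it was 1, Saa3 (range 0 to 1). Of 123 member results under alternatives, 119 kept their direction and their side of the threshold, 3 changed direction and 1 passed. The 123 include 13 results each for Saa1, Saa2 and Cfb, which lay below the filter and had no call to keep. These came from fits over all identifiers, and all 13 of each are counted among the 119. The changes of direction were Lcn2 without WT replicate 2 (-0.041; range over left-out libraries -0.041 to 1.34) and C3 without cKO replicate 3 (0.46) or WT replicate 3 (0.35; range -0.40 to 0.46). The cause was not tested. Left-out libraries gave 1.70 to 3.99 for Saa3, 0.76 to 2.08 for Hp, -0.94 to -0.55 for C4b and -0.41 to -0.08 for Serping1. Scaling did not turn any member: the median over all tested genes was 0.08 unscaled, 0.02 after median-ratio scaling and -0.002 after quantile normalization. Replicate numbers were not taken as pairs, since deviations of same-numbered libraries correlated at 0.14, 0.03 and -0.21 and only cKO replicate 1 correlated best with its own number; the block changed no member's call.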
